A study of Mus musculus with 29 samples.

Results

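Voltage-gated potassium (Kv) channels are tetramers of pore-forming subunits that open on depolarisation and let potassium leave the cell. Their subfamilies differ in how fast and at what voltage they open, and they set the resting potential, the shape of the action potential and the rate of firing in neurons. Silent subunits form no channel alone and modify the Kv2 channels they join, while Kv beta subunits and potassium channel-interacting proteins (KChIPs) are cytoplasmic partners of Kv1 and Kv4 channels, respectively.

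The genes described here are the mouse Kv subunit genes, taken by symbol as every row starting with Kcna, Kcnb, Kcnc, Kcnd, Kcnf, Kcng, Kcnh, Kcnq, Kcns, Kcnv, Kcnab or Kcnip and a digit, except the long noncoding RNA Kcnq1ot1, provided that all libraries of at least one of 6 groups held more than 20 counts. Of 47 such symbols, 39 passed, out of 14132 gene rows that passed among 36172 in the table. The 39 members included 6 of 8 Kv1 and all 3 Kv4 genes, 7 of 8 EAG, ERG and ELK genes, 7 of 10 silent subunits, all 3 Kv beta genes and 3 of 4 KChIPs. Each of 30 members passed in all 6 groups, and 31 passed in the Aldh1l1-NuTRAP positive fraction. Just inside the threshold lay Kcnh6, whose best group had at least 46 counts in each library, and just outside lay Kcnh8 and Kcng3, whose best groups reached 18 and 15 counts in their lowest library. Kcnip2 and Kcns2 were listed at 0 in all 29 libraries.

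Ribosome-bound RNA was captured from half-brain homogenates of mice of about 3 months that carried the NuTRAP reporter, which puts EGFP on the ribosomal protein L10a after recombination, together with a tamoxifen-inducible Cre. In Aldh1l1-cre/ERT2+; NuTRAP+ mice (Aldh1l1-NuTRAP) the Aldh1l1 promoter, active in astrocytes, drove the Cre, and the bead-bound positive fraction and the unbound negative fraction of the same 3 mice (290, 293 and 294) are used here. In Cx3cr1-cre/ERT2+; NuTRAP+ mice (Cx3cr1-NuTRAP) the Cx3cr1 promoter, active in microglia, drove it, and positive, negative and input libraries came from 6 mice (155, 192, 194, 209, 210 and 277), with conventionally isolated whole-tissue RNA from 5 of them (all but mouse 155). The titles of these whole-tissue libraries call them slices. Which part of the brain a slice covered is not given, so it may differ from that of the input. All of these mice received tamoxifen, so no library represents tissue without Cre induction, and the sex of each mouse is not in the labels.

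Libraries held from 4260949 to 26857866 assigned counts, the lowest being the whole tissue of mouse 210. Kv members took 0.154 to 0.189% of the counts in the Aldh1l1-NuTRAP positive fraction and 0.315 to 0.468% in the Cx3cr1-NuTRAP libraries. Levels are given in CPM, counts per 1000000 counts of a library after normalisation. The labelled cell types were checked with 12 markers each. Summed astrocyte markers reached 24990 to 34493 CPM in the Aldh1l1-NuTRAP positive fraction against 3527 to 4324 CPM in its negative fraction. Summed microglial markers reached 3299 to 8469 CPM in the Cx3cr1-NuTRAP positive fraction against 399 to 437 CPM in input. Markers of neurons (15 genes) summed to 4209 to 4735 CPM in the Aldh1l1-NuTRAP positive fraction, 13207 to 13511 CPM in its negative fraction, and in Cx3cr1-NuTRAP to 9815 to 12817 CPM in positive fractions and 11697 to 12537 CPM in inputs. No neuronal marker was at or under 3 counts throughout any group.

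In the input of Cx3cr1-NuTRAP brains the Kv transcripts spanned a wide range when expressed per kilobase of annotated exon. Kcnab2, a Kv beta subunit of axonal Kv1 channels, was the highest at 85.3 CPM per kb, and other abundant members were Kcna1 (61.2), Kcnc1 (48.9) and Kcna2 (39.1). Kcnc1 encodes a Kv3 channel, a class that repolarises fast-spiking neurons, and Kcna1 and Kcna2 encode the axonal Kv1.1 and Kv1.2. At the low end were Kcnh6 (0.716 CPM per kb), Kcnh7 (0.635), both ERG-type subunits, and Kcnb2 (0.538), the Kv2.2 subunit. In whole tissue Kcnab2 again led, at 96.9 CPM per kb, and Kcnb2 was at 0.665.

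How Kv genes fared in astrocyte-enriched RNA was answered by the positive against the negative fraction of the 3 Aldh1l1-NuTRAP mice. Of the 39 members, 30 were lower in the positive fraction and 3 were higher, and 6 were not called. Over all genes tested, 23.6% were called lower and 26% higher in the same comparison. Of the lower members, Kcna3, Kcna5, Kcnb2, Kcng1, Kcnh5 and Kcnh7 did not pass the count filter in the positive fraction. They were members only through other groups, and Kcna3 did not pass in the negative fraction either. The median log2 fold change of the members was -1.22 against 0.02 over all genes, beside -1.54 for the 15 neuronal markers, of which 15 were lower. Markers of other cell types were lower too, with 9 of 10 for oligodendrocytes (median -2.86), 12 of 12 for microglia (-2.32) and 5 of 7 for oligodendrocyte precursors (-1.87, with the other 2 higher), while 0 of 8 endothelial markers were called. Summed oligodendrocyte markers were at 1537 to 1901 CPM in the positive and 6250 to 7499 CPM in the negative fractions, microglial ones at 88.7 to 199 and 373 to 613 CPM, and precursor ones at 661 to 811 and 565 to 704 CPM. Their part in the result was not tested. In bulk RNA, fewer cells of a type and less RNA per cell cannot be told apart, and the p-values measure the spread between these mice. Without mouse 293 the count of lower members was 19, and without mouse 294 it was also 19, with 21 of the 33 calls kept in each case. Over all genes the lower calls also fell, from 3332 to 1586 and 1521. Among the calls lost both times were those of Kcna3, Kcnd2, Kcnd3, Kcnh4, Kcnh5, Kcnh7, Kcnq3 and Kcns1. Mouse 290 differed most from the others in both fractions. Without it all 33 calls were kept, and 4762 of all genes were lower and 4848 higher.

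Among Kv1 genes, 5 of 6 were lower, with Kcna1 at a log2 fold change of -1.72 and Kcna3 at -1.77. Kcnb2, a Kv2 subunit, was lower at -1.36, and the Kv3 genes Kcnc1 and Kcnc2 were lower at -1.49 and -1.77. The smallest declines among called genes were in the Kv4 family, which carries the A-type current, with Kcnd2 at -0.59 and Kcnd3 at -0.78. Kcnq3 (-0.85) and Kcnq5 (-1.86), Kv7 subunits of the M-current, were lower. Of the EAG, ERG and ELK genes, 6 of 7 were lower, from Kcnh1 at -1.98 to Kcnh2, the cardiac ERG channel, at -0.92. All 3 Kv beta genes were lower (Kcnab1 -1.66, Kcnab2 -1.41 and Kcnab3 -1.11), as were 2 of 3 KChIPs (Kcnip1 -1.10 and Kcnip4 -1.31) and 4 of 7 silent subunits (Kcnv1, Kcng1, Kcnf1 and Kcns1).

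**Figure D1:**
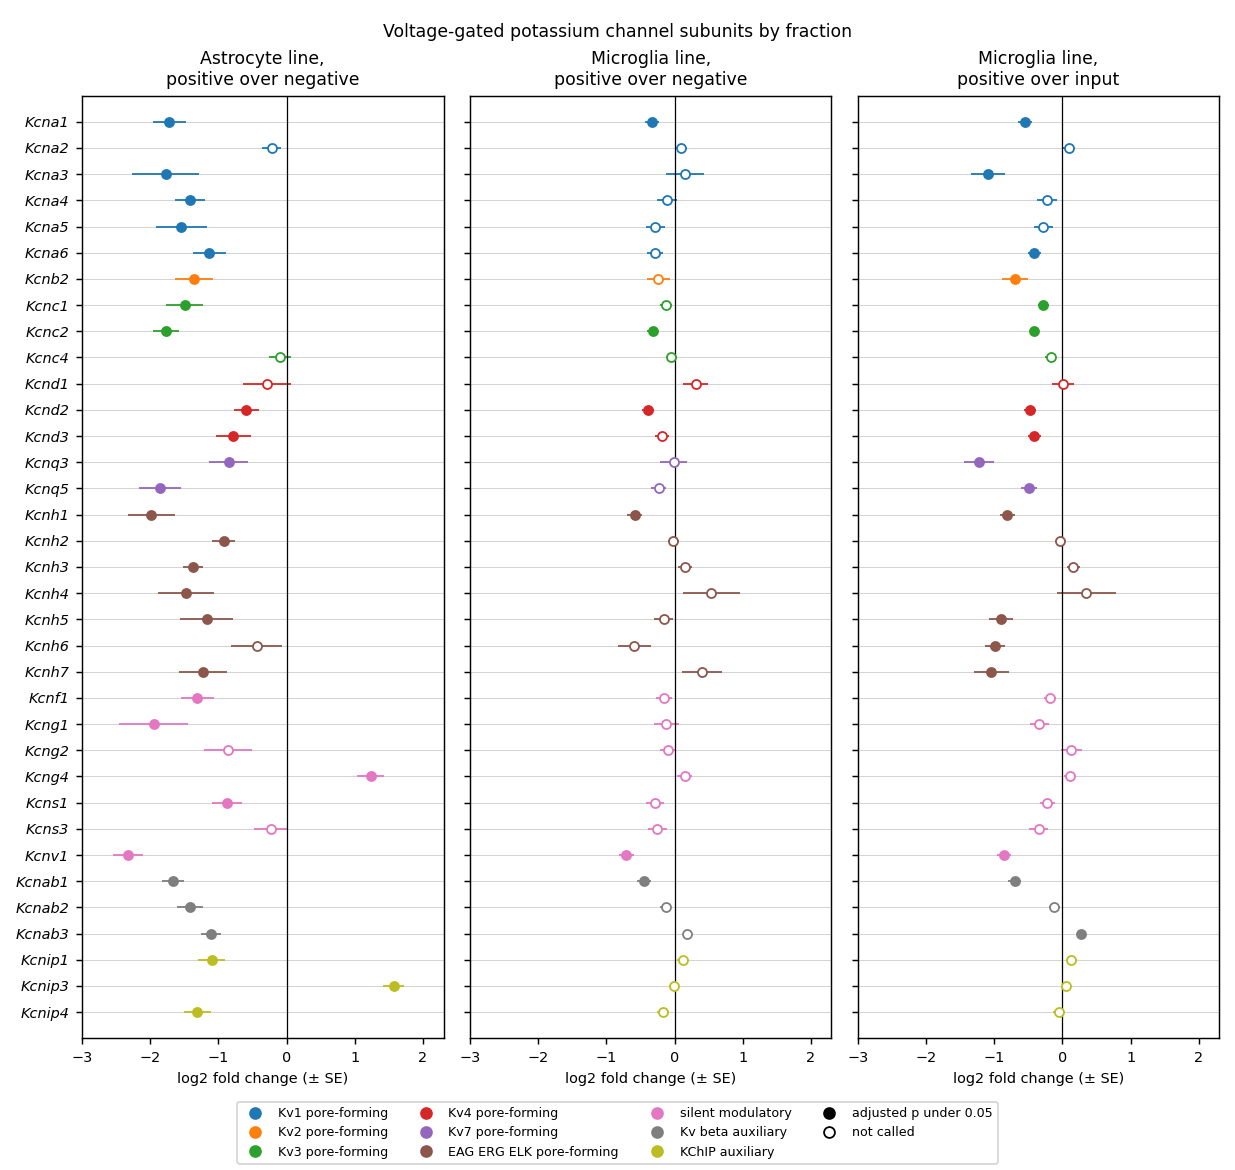
Log2 fold change (x axis, with standard error bars) of Kv subunit genes (y axis, coloured by role) in 3 comparisons, filled where the adjusted p was under 0.05. In the left panel most genes lie below 0 as filled points and Kcnip3 (1.57) and Kcng4 (1.23) lie above it, whereas the fold changes of the Cx3cr1-NuTRAP fractions lie closer to 0.

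The largest decline was in Kcnv1, a silent subunit (Kv8.1). Its level was 11, 9.04 and 10.1 CPM in the positive fractions of mice 290, 293 and 294 and 36.9, 58.2 and 53.5 CPM in their negative fractions, a log2 fold change of -2.33 ± 0.22 (SE; edgeR, adjusted p = 0.000184). Every positive fraction was well below every negative one. Kcnh1 (EAG1) was at 10.5, 18.5 and 17.6 CPM in the positive fractions against 39.6, 58.2 and 83.8 CPM (-1.98 ± 0.34, edgeR adjusted p = 0.00237). Kcng1, a silent partner of Kv2 channels, had 1.15, 5.97 and 2.59 CPM against 10.5, 13.1 and 14.6 CPM (-1.95 ± 0.51, edgeR adjusted p = 0.0155). The positive fractions of Kcng1 were widely spread, and without mouse 294 the call was lost (edgeR adjusted p = 0.112). Kcnq5, a Kv7 subunit, was at 10.8, 20 and 17.7 CPM against 39.1, 68.3 and 67.3 CPM (-1.86 ± 0.31, edgeR adjusted p = 0.00224). Kcnc2 (Kv3.2), typical of fast-spiking interneurons, was at 32.7, 46.3 and 32 CPM against 122, 128 and 124 CPM (-1.77 ± 0.19, edgeR adjusted p = 0.000321). These genes were picked among called members whose positive and negative groups did not overlap, so that all 3 mice moved the same way by that choice.

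Kcnb2 was at 1.96, 3.08 and 2.65 CPM in the Aldh1l1-NuTRAP positive fractions and 6.95, 5.86 and 6.9 CPM in the negative ones, so that the groups did not overlap (log2 fold change -1.36 ± 0.28, edgeR adjusted p = 0.00532). Its counts there were small, from 17 to 50 per positive library, and without mouse 294 the adjusted p was 0.0734 at a similar fold change of -1.34.

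Kcnip3 and Kcng4 went the other way. Kcnip3 encodes KChIP3, also known as DREAM or calsenilin, a calcium-binding protein that acts on Kv4 channels and as a transcriptional repressor. It was at 428, 453 and 424 CPM in the positive fractions and 132, 151 and 151 CPM in the negative ones (log2 fold change 1.57 ± 0.15, edgeR adjusted p = 0.000161), a 2.96-fold difference with no overlap. Per kilobase it was the most abundant member of the positive fraction, at 123 CPM per kb. Kcng4 (Kv6.4), a silent partner of Kv2 channels, was at 73.7, 91.2 and 106 CPM against 32.1, 36.8 and 44.8 CPM (1.23 ± 0.20, edgeR adjusted p = 0.00215). Both genes were picked among called members whose fractions did not overlap, so that all 3 positive fractions exceeded all 3 negative ones.

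Markers of choroid plexus moved with these genes, all 8 of 8 being higher in the Aldh1l1-NuTRAP positive fraction, with a summed level of 3817 to 4651 CPM against 490 to 636 CPM. Their part in the result was not tested.

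Sequence upstream of Kcnip3 and Kcng4 is shown because they rose against the trend of the family, and that of Kcnc2 and Kcnq5 because both declined and their windows hold a searched motif. The RefSeq promoter table (GRCm38.p6) held starts for 26 of the 39 members (40 starts), including Kcnip3 and Kcng4 but not Kcnb2. The 250 bases before the start are given 5′ to 3′ on the strand of the gene, for windows that hold no annotated exon, at chr2:127521393-127521642 (minus strand) for Kcnip3, chr8:119635681-119635930 (minus strand) for Kcng4, chr10:112269767-112270016 (plus strand) for Kcnc2 and chr1:21962651-21962900 (minus strand) for Kcnq5. Capitals mark the letters CAGCACC on either strand, part of the RE1 element bound by the neuronal gene repressor REST.
Kcnip3: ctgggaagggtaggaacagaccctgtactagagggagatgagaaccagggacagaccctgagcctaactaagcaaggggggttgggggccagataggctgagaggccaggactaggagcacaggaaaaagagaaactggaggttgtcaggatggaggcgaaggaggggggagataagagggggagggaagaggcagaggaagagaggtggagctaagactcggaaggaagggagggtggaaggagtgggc
Kcng4: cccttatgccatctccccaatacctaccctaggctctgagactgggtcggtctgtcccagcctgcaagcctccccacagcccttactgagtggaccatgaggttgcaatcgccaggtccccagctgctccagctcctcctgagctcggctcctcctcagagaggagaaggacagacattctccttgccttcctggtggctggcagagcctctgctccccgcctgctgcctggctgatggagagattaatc
Kcnc2: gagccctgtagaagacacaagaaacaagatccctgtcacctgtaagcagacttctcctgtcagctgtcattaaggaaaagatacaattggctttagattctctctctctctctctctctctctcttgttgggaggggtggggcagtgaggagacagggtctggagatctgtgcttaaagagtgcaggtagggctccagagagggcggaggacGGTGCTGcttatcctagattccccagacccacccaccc
Kcnq5: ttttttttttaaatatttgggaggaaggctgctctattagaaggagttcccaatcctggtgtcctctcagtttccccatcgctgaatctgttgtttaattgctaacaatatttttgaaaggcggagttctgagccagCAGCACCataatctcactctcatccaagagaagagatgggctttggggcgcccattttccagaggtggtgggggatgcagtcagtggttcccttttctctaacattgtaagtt

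On both strands of these windows, CAGCACC was found at 4 of the 40 member starts (10%), in Kcnc2, Kcnq5, Kcnab2 and Kcnh6, against 5.73% of the 32851 starts in the whole table. TATAAA, the core of a TATA box, was found at 0 of the 40 member starts and at 12.4% of all starts, and TTGGCA, a nuclear factor I half-site, at 7.5% and 12.3%, respectively. Median GC content was 60.2% at member starts and 52.4% at all starts. The 4 starts of Kcnip3 and Kcng4 ranged from 58 to 71.2% GC and held none of the motifs, and gene-level counts do not show which start was used.

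The 6 members that were not called were Kcna2, Kcnc4, Kcnd1, Kcns3, Kcnh6 and Kcng2. Kcna2 was at 468, 419 and 381 CPM in the positive and 507, 451 and 496 CPM in the negative fractions, a log2 fold change of -0.22 ± 0.14 (edgeR, adjusted p = 0.238). Its groups overlapped although each mouse was slightly lower in its positive fraction, and Kcna1, its frequent partner in axonal channels, was at -1.72. Kcnc4 (Kv3.4), the fast-inactivating Kv3 subunit, was at 69.5, 80.9 and 81.2 CPM against 72.4, 88.7 and 84.2 CPM (-0.10 ± 0.16, edgeR adjusted p = 0.607). Scaling by library totals alone moved the median of all genes to -0.36 in this comparison, and put Kcna2 at -0.59 and Kcnc4 at -0.48, both then called lower. With that scaling 2433 genes were called higher and 5069 lower, in place of 3679 and 3332. Kcng2, a silent subunit, was at a log2 fold change of -0.86 (edgeR adjusted p = 0.0752), and its blocked value with the mouse as pairing term was -0.89 with an adjusted p of 0.0196. Kcnd1 (-0.29), Kcns3 (-0.23) and Kcnh6 (-0.44) had standard errors of 0.35, 0.25 and 0.38.

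**Figure D2:**
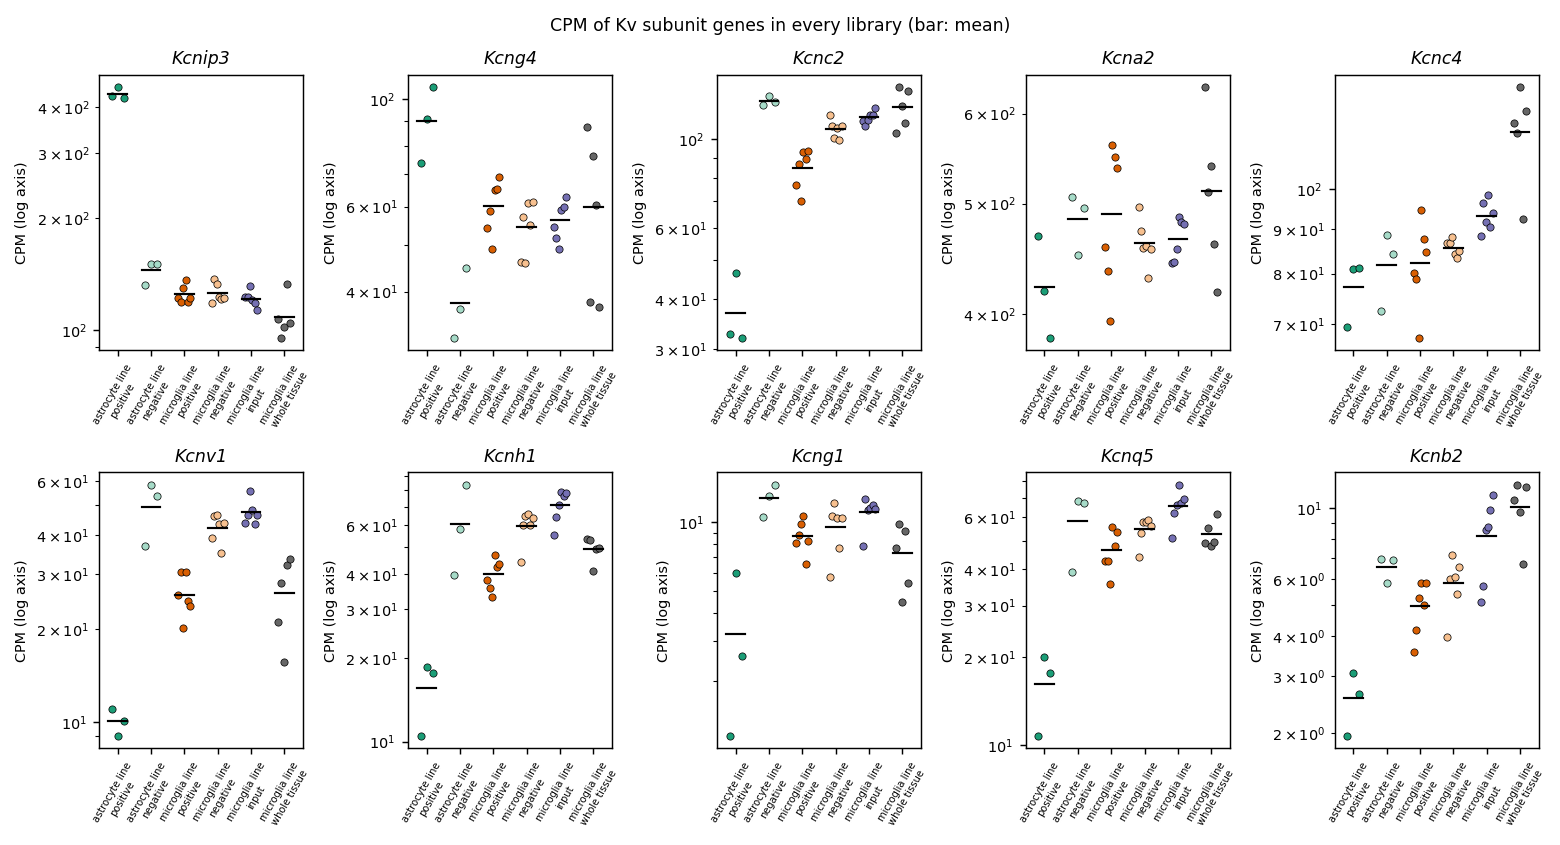
CPM on a log axis (y) of 10 Kv genes in each of the 29 libraries, grouped on the x axis by line and fraction, with a bar at the group mean. The Kcnip3 points of the astrocyte-line positive fraction lie at 424 to 453 CPM, above every other library, while those of Kcnv1, Kcnh1 and Kcnq5 lie below every other library.

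The make-up of the pore-forming transcripts also differed between these fractions. The summed level of pore-forming members was 191 ± 17.8 CPM per kb (SD, n = 3) in the Aldh1l1-NuTRAP positive fraction and 377 ± 41.3 CPM per kb (n = 3) in the negative fraction. Kcnc4 accounted for 10.9 to 11.1% of the sum in the positive fractions and 5.43 to 6.63% in the negative ones, and Kcna2 for 15.8 to 23.1% against 9.86 to 12.4%. Kcnd2 accounted for 8.82 to 9.63% against 5.99 to 7.7%. In the other direction, Kcna1 made up 7.47 to 9.01% of the positive and 10.6 to 14.8% of the negative sums. None of these 4 shares overlapped between the fractions, but they were picked after all shares were seen. Other shares that were smaller in the positive fraction without overlap included those of Kcnc1 (5.56 to 8.25% against 9.16 to 11.5%) and Kcnc2 (2.21 to 3.27% against 4.12 to 4.99%). Those of Kcna4, Kcnb2, Kcnh1 and Kcnq5 were among them too. The Kv4 share was 12.2 ± 1.13% against 9.46 ± 0.84% and that of EAG, ERG and ELK genes 10.6 ± 0.386% against 13 ± 1.24% (SD, n = 3), both without overlap, while the shares of the Kv1, Kv3 and Kv7 families overlapped. The 2 fractions came from the same 3 mice, and these shares are given without a test.

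**Figure D3:**
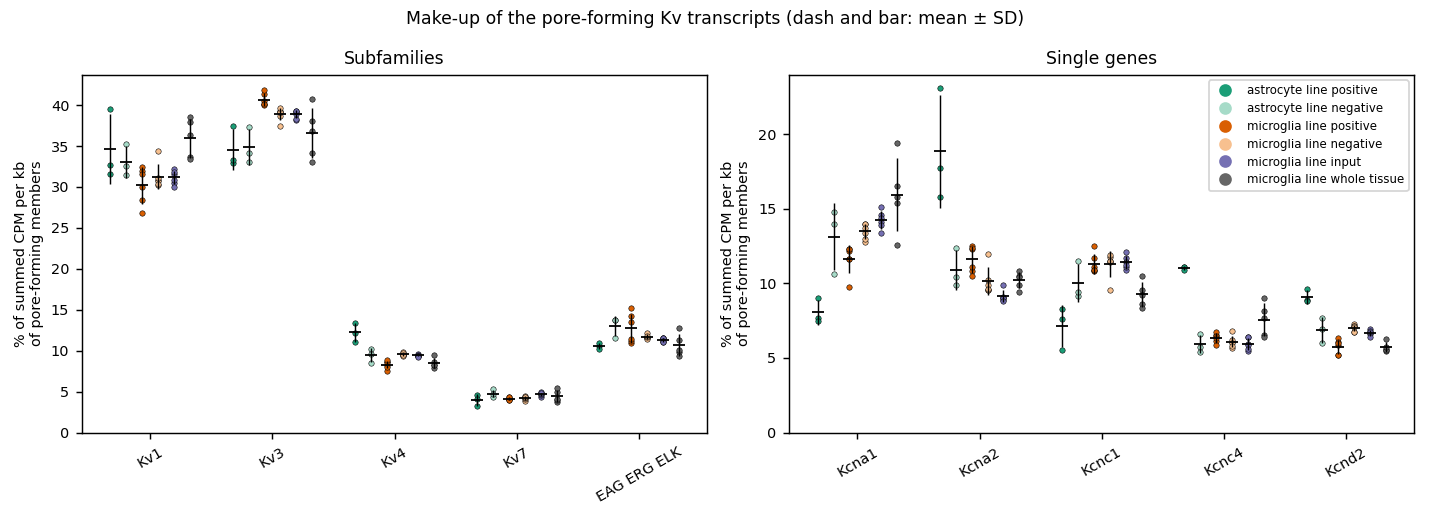
Percentage of the summed CPM per kb of all pore-forming Kv members (y axis) taken by 5 subfamilies (left) and 5 single genes (right), with a point per library, coloured by group, and dash and bar at mean ± SD. Kcna2, Kcnc4 and Kcnd2 take larger shares in the astrocyte-line positive fraction than in its negative fraction, and Kcna1 and Kcnc1 smaller ones.

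Whether Kv transcripts were also depleted from microglia-enriched RNA was answered by the positive fraction and the input of the 6 Cx3cr1-NuTRAP mice. Here 19 members were lower, 1 was higher and 19 were not called, with 22.5% of all genes called lower and 25.5% higher. The median log2 fold change of the members was -0.33, against 0.03 over all genes and -0.02 for the neuronal markers, of which 2 of 15 were lower and 1 higher. Of the 93 genes in the neuron list of the study that are not members, drawn by the authors from published purified-cell and single-cell data, 37 were lower and 10 higher, with a median of -0.17. Markers of some other cell types were lower as well, with 9 of 10 for oligodendrocytes (median -0.65), 6 of 7 for their precursors (-0.68), 9 of 12 for astrocytes (-0.47) and 5 of 8 for cortex and hippocampus (-0.37). Summed oligodendrocyte markers were at 1405 to 3520 CPM in the positive fractions and 4659 to 5188 CPM in input, those of precursors at no more than 385 CPM and at least 490 CPM, those of astrocytes at 3053 to 4452 and 4665 to 5255 CPM, and those of cortex and hippocampus at 611 to 721 and 718 to 851 CPM. Endothelial markers and those of interneurons other than fast-spiking ones included 4 of 8 (median 0.38) and 3 of 6 (0.33) higher and none lower, at summed levels of 104 to 202 against 102 to 125 CPM and 505 to 821 against 481 to 653 CPM. The part of these markers in the result was not tested. By role, 3 of 6 Kv1 genes and 4 of 7 EAG, ERG and ELK genes were lower, whereas none of the 3 KChIPs was called. Also lower were 2 of 3 Kv4 genes, 1 of 3 Kv beta genes and 1 of 7 silent subunits. Further lower genes, of roles not tallied here, included Kcnq3 and Kcnb2, and Kcnq5 (-0.49), Kcnc2 (-0.41) and Kcnc1 (-0.28). Kcns3, a silent subunit, was not called (-0.35, edgeR adjusted p = 0.0574), and its blocked value with the mouse as pairing term was -0.34 with an adjusted p of 0.0442.

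Kcnq3, a Kv7 subunit of the M-channel, had a lowest, median and highest level of 5.52, 7.61 and 9.85 CPM in the positive fraction and 10.4, 18.1 and 24.9 CPM in input (log2 fold change -1.22 ± 0.22, edgeR adjusted p = 0.000617). Kcna3 (Kv1.3), a channel known from lymphocytes and activated microglia, was at 1.41, 2.98 and 4.08 CPM in the positive fraction and 4.13, 6.46 and 8.26 CPM in input (-1.09 ± 0.25, edgeR adjusted p = 0.00262). For both genes the highest positive fraction lay just under the lowest input, and all 6 mice were lower in the positive fraction. Kcnh6 (ERG2) was at 1.05, 1.24 and 1.54 CPM against 2.35, 2.46 and 2.92 CPM (-0.99 ± 0.15, edgeR adjusted p = 0.000151). It passed the count filter only in the input and the negative fraction of this line. Kcnh5 (EAG2) was at 4.04, 5.26 and 6.38 CPM against 6.83, 10.4 and 12.5 CPM (-0.90 ± 0.18, edgeR adjusted p = 0.000899). Kcnv1 was at 20.1, 25.1 and 30.4 CPM against 43.5, 46.6 and 55.6 CPM (-0.86 ± 0.10, edgeR adjusted p = 1.26e-05). These genes were picked among called members whose groups did not overlap, so the lack of overlap and the agreement of the mice follow from that choice.

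Kcnb2 was at 3.57, 5.13 and 5.86 CPM in the positive fraction and 5.12, 8.62 and 11 CPM in input, overlapping but lower in all 6 mice (-0.70 ± 0.19, edgeR adjusted p = 0.0085). Without mice 209, 210 and 277 its call was lost (-0.61, edgeR adjusted p = 0.0704). The only member that was higher was Kcnab3, the Kv beta 3 subunit, at 97.8, 103 and 106 CPM against 78, 85.6 and 89.6 CPM (0.27 ± 0.05, edgeR adjusted p = 0.000771). That difference, 1.21-fold, was seen in all 6 mice without overlap, by which the gene was picked, but it does not pass a limit of 25% change. Without mouse 155 Kcnip1 was also called higher.

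Against the negative fraction in place of input, 6 of the 39 members were lower and 0 higher, beside 9.73% and 13.1% of all genes. An unadjusted p under 0.05 was met by 10 members, 1 of them higher (Kcnab3), which DESeq2 also called. The 6 were Kcnv1 (-0.71), Kcnh1 (-0.58), Kcnab1 (-0.45), Kcnd2 (-0.39), Kcna1 (-0.33) and Kcnc2 (-0.32), and each was lower in all 6 mice. Without mouse 192, 3 were lower, and 555 of all genes in place of 1375. Kcna1 lost its call in the fit with the mouse as block. Kcnq3, Kcna3 and Kcnh7, among the largest declines against input, stood at -0.01, 0.15 and 0.40 against the negative fraction and were not called. Kcnip3 (-0.01) and Kcng4 (0.15) were not called either. Markers lower in this comparison included 9 of 10 for oligodendrocytes (median -0.73), 7 of 7 for their precursors (-0.67), 9 of 12 for astrocytes (-0.44) and 5 of 7 for striatum (-0.56). None of these was higher, whereas 3 of 8 endothelial markers were (0.39), and 0 of 15 neuronal markers were called. Their part in the result was not tested.

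The unbound fraction and the input came from the same homogenate, and their comparison shows which members differed between the starting supernatant and what the beads left behind. Of the members, 5 were lower in the negative fraction and 0 higher, where 4.32% and 1.26% of all genes were called, and 16 members met an unadjusted p under 0.05, 1 of them higher (Kcnip4). The 5 called were Kcnh7 (log2 fold change -1.43 ± 0.29), Kcna3 (-1.23 ± 0.21), Kcnq3 (-1.20 ± 0.23), Kcnh5 (-0.73 ± 0.16) and Kcnab1 (-0.24). Of these, Kcnh7 did not pass the count filter in the negative fraction. The count depended on the mice and on the pairing, as did that over all genes, which was 610 lower and 178 higher. Without any one of mice 192, 194, 209, 210 or 277 no member was called, but neither was any gene of the table called lower, and at most 3 were called higher. Without mouse 155 there were 14 lower and 1 higher members among 2027 lower and 1749 higher genes. With the mouse as block there were 17 lower and 2 higher members among 2691 and 2398 genes.

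Mouse by mouse, Kcna3 was at 4.66, 5.91 and 4.13 CPM in the inputs of mice 155, 192 and 194 and at 8.26, 7.02 and 7.27 CPM in those of mice 209, 210 and 277. In the negative fractions of the same mice it was at 1.36, 2.53 and 2.17 CPM and at 3.42, 2.99 and 3.11 CPM. In whole tissue it was at 13.5, 18, 14.4, 6.7 and 16.2 CPM in mice 192, 194, 209, 210 and 277. Within a mouse the gene was thus highest in whole tissue, except in mouse 210, and both fractions were below the input. The tissue library of mouse 210, also the shallowest, was the lowest tissue library for Kcna3 and for Kcnh7, Kcnq3 and Kcnh5 below. The cause was not tested. Kcnh7 (ERG3) was at 5.04, 7 and 7.46 CPM and 13.4, 12.6 and 12.6 CPM in the inputs, 1.09 to 4.81 CPM in the negative fractions and 16.8, 17.5, 13.6, 7.6 and 18.6 CPM in whole tissue. Kcnq3 inputs were at 10.4, 13.5 and 13.7 CPM in mice 155, 192 and 194 and 22.4, 23.4 and 24.9 CPM in mice 209, 210 and 277, with 34.1, 38.2, 25.2, 16.3 and 36 CPM in whole tissue. Kcnh5 inputs were at 7.1, 8.86 and 6.83 CPM and 12.5, 12.3 and 12 CPM, with 17.7, 20.2, 19.7, 10.5 and 21.2 CPM in whole tissue. The labels name no batch that separates these mice. Among the gene spans, Kcnh7, Kcnq3 and Kcnh5 cover 481342, 291310 and 280116 bp on chromosomes 2, 15 and 12, whereas Kcna3 covers 1968 bp on chromosome 3.

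**Figure D4:**
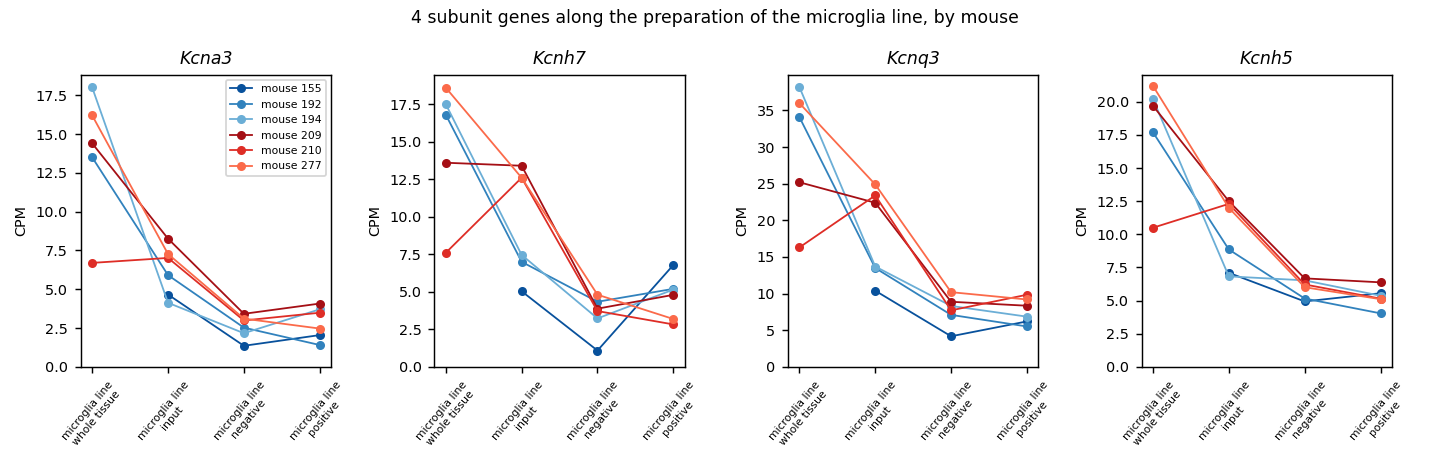
CPM (y axis) of Kcna3, Kcnh7, Kcnq3 and Kcnh5 in the whole tissue, input, negative and positive libraries (x axis) of the Cx3cr1-NuTRAP mice, with a line per mouse. Inputs of mice 209, 210 and 277 lie above those of mice 155, 192 and 194 in each panel, and every negative fraction lies below the input of its mouse, whereas Kcnh7 of mouse 155 is higher in the positive fraction (6.79 CPM) than in input (5.04 CPM).

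These 4 genes were carried through the comparisons without either set of mice, alternatives chosen after the inputs were seen to differ. Without mice 155, 192 and 194 their log2 fold changes from input to the positive fraction were -1.12 for Kcna3, -1.78 for Kcnh7, -1.33 for Kcnq3 and -1.10 for Kcnh5. Without mice 209, 210 and 277 they were -1.07, -0.22, -1.05 and -0.65, and Kcnh7 was then not called (edgeR adjusted p = 0.437). From input to the negative fraction 16 members were lower without the first set, among 2376 lower genes, whereas without the second 0 of all 14132 genes were called in either direction, so that this refit says nothing about the members.

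Input of the 6 mice and whole tissue of 5 of them differed for 18 members, 11 higher and 7 lower in input, against 15.5% and 13.8% of all genes. Kcnh4 (ELK1) was higher in input at 1.36 ± 0.23 (edgeR adjusted p = 0.00071), Kcnv1 at 0.91 and Kcnh3 at 0.85, subunits known from forebrain neurons. Kcna3 (-1.17), Kcnh5 (-0.86) and Kcnq3 (-0.75) were lower, the last losing its call with the mouse as block and without any one of mice 155, 192, 194, 209 or 277. Kcnb2 did not pass (-0.33 ± 0.18). With mice 155, 192 and 194 left out, 6 were higher and 0 lower, while the calls over all genes fell from 2197 higher and 1955 lower to 871 and 639. With the mouse as block 4 members were lower, and 1366 of all genes. Against whole tissue the positive fraction had 16 lower and 4 higher members, with 23.8% and 26.8% of all genes. Kcna3 was lowest relative to tissue, at -2.25, and Kcnb2 was at -1.02. With the mouse as block, Kcnab2, Kcnh1, Kcnh2, Kcnh4 and Kcnh6 lost their calls. Markers of striatum summed to 710 to 790 CPM in input and 183 to 550 CPM in whole tissue, and markers of thalamus and hindbrain to 77.4 to 104 CPM and 130 to 219 CPM, and all 8 endothelial markers were lower in input. The part of these differences in tissue make-up was not tested.

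Positive fractions of the 2 lines were compared directly. In Aldh1l1-NuTRAP, 29 members were lower and 3 higher than in Cx3cr1-NuTRAP, with 32.4% and 30.2% of all genes. The median of the members was -1.23 against -0.08 over all genes. Markers of several cell types moved with it, with 15 of 15 neuronal (median -1.43), 8 of 8 cerebellar (-1.69), 9 of 10 oligodendrocyte (-1.69) and 12 of 12 microglial markers (-5.89) lower and all 8 choroid plexus markers higher (2.22). Summed cerebellar markers were at 319 to 737 CPM in Aldh1l1-NuTRAP and 1214 to 1511 CPM in Cx3cr1-NuTRAP, and choroid plexus markers at 3817 to 4651 and 231 to 1007 CPM, while the sums for the other lists are those given earlier. Their part in the result was not tested. Kcnip3 was 3.26-fold higher (log2 fold change 1.71 ± 0.10, edgeR adjusted p = 1.05e-07), since the Cx3cr1-NuTRAP positive fractions had 119, 122 and 136 CPM as lowest, median and highest. Kcng4 was higher by 0.49 ± 0.15 (edgeR adjusted p = 0.0138) against 48.9, 61.8 and 69 CPM, but the call was lost with library totals alone (0.17), which moved the median of all genes to -0.41, and without mouse 294 (0.36). Both genes were picked among called members that did not overlap between the lines.

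Among the largest declines between the lines without overlap were those of Kcna3, Kcnc1, Kcnq5 and Kcna1. Kcna3 was at 0.92, 1.17 and 0.634 CPM in Aldh1l1-NuTRAP, 8 to 19 counts per library (-1.76 ± 0.41, edgeR adjusted p = 0.00337). It passed the count filter only in groups of Cx3cr1-NuTRAP. Kcnc1 was at 89.5, 143 and 159 CPM against 337, 377 and 403 CPM (-1.62 ± 0.18, edgeR adjusted p = 1.87e-05). Kcnq5 had 35.5, 45.3 and 55.4 CPM in Cx3cr1-NuTRAP, above all 3 Aldh1l1-NuTRAP values given earlier (-1.60 ± 0.22, edgeR adjusted p = 8.78e-05). Kcna1 was at 62.6, 70.9 and 87.5 CPM against 147, 205 and 225 CPM (-1.51 ± 0.17, edgeR adjusted p = 2.03e-05). Kcnb2 was at -1.03 ± 0.25 (edgeR adjusted p = 0.00464). The positive fractions of the 2 lines are used in several comparisons here, which are therefore not independent of each other.

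Negative fractions of the 2 lines gave 0 calls in either direction among the members, with 0.113% of all genes higher and 0.12% lower in Aldh1l1-NuTRAP. By an unadjusted p under 0.05 there were 5 members, Kcnc2, Kcng4 and Kcnh3 among them, and DESeq2 called 1 higher and 1 lower, Kcnh3 and Kcng4. Kcng4 was at 32.1, 36.8 and 44.8 CPM in Aldh1l1-NuTRAP and 45.8, 56 and 61.4 CPM in Cx3cr1-NuTRAP (-0.55 ± 0.14, edgeR adjusted p = 0.142).

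The difference between the lines in the positive-to-negative change was tested as an interaction of line and fraction. It was called for 33 members, 30 with the more negative change in Aldh1l1-NuTRAP and 3 with the more positive one, against 29.6% and 25.4% of all genes. Among marker lists the interaction was called negative for 15 of 15 neuronal (median -1.51), 9 of 10 oligodendrocyte and 12 of 12 microglial markers (-6.13) and positive for all 8 of choroid plexus (2.91). In the Cx3cr1-NuTRAP negative fractions, neuronal markers summed to 11954 to 12672 CPM, oligodendrocyte ones to 4766 to 5372 CPM and choroid plexus ones to 886 to 1399 CPM. The part of these lists in the members' interaction was not tested. The positive ones among the members included Kcnip3 (1.53 ± 0.12, edgeR adjusted p = 6.19e-09) and Kcng4 (1.03 ± 0.21, adjusted p = 0.000432). The most negative were Kcnh4 (-2.07 ± 0.73, edgeR adjusted p = 0.0232), Kcna3 (-1.97 ± 0.56, adjusted p = 0.0058) and Kcng1 (-1.86 ± 0.45, adjusted p = 0.00189), and Kcnb2 was at -1.15 ± 0.30 (adjusted p = 0.00334). In the Cx3cr1-NuTRAP negative fractions, the lowest, median and highest levels were 118, 122 and 137 CPM for Kcnip3 and 5.76, 10.4 and 12.2 CPM for Kcng1, which was at 6.57, 8.55 and 10.7 CPM in the positive ones. Kcna3 was no longer called without mouse 294 (-1.30).

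Kcnh4 needs its single values. In the Aldh1l1-NuTRAP positive fractions it was at 3.11, 5.05 and 4.72 CPM and in the negative ones at 5.53, 15.3 and 14.4 CPM. In Cx3cr1-NuTRAP positive fractions it was at 22.8, 12.2 and 27.5 CPM in mice 155, 192 and 194 and at 5.47, 3.28 and 7.58 CPM in mice 209, 210 and 277, while the negative fractions were at 4.94, 9.71 and 11.1 CPM (lowest, median and highest). The 6 positive fractions thus spread to both sides of the negative ones. The nuclear noncoding RNA Malat1 was at 4291 to 5331 CPM in the positive fractions of the first 3 mice and at no more than 1543 CPM in the others, and its part in the result was not tested. Kcnh4 lost its interaction call without a count filter, without mouse 155, 293 or 294, and with the mouse as block (-1.71, adjusted p = 0.0527), as did Kcns1 in that last fit (-0.64, adjusted p = 0.0558).

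Proteins that assemble with or cluster Kv channels were described with a list of 21, of which 19 were tested. In the Aldh1l1-NuTRAP positive against the negative fraction, 9 were lower and 3 higher, with a median of -0.51. Lower were Cntn2 (-2.02), Cntnap2 (-0.71) and Adam22 (-1.55), which hold Kv1 channels beside the node of Ranvier, Adam23 (-0.68), the Kv4 partners Dpp6 (-1.26) and Dpp10 (-1.90), and the scaffolds Dlg1 (-0.46), Dlg2 (-1.44) and Dlg4 (-1.32). Higher were the single-pass subunits Kcne1l (4.24) and Kcne2 (2.79), and Vapb (0.65), an endoplasmic reticulum protein that binds Kv2 channels. Kcne1l was at 154, 130 and 124 CPM in the positive and 8.83, 6.56 and 6.05 CPM in the negative fractions, the largest difference among partners and members. Kcne2, known from choroid plexus, was at 10.6, 21.3 and 34.3 CPM against 2.47, 3.24 and 3.61 CPM. Amigo1 (-0.09), Lgi1 (-0.12), Ank3 (-0.51), Amigo2 (0.26), Amigo3 (0.49), Vapa (0.13) and Kcne4 (-0.99) were not called. In the Cx3cr1-NuTRAP positive fraction against input 9 partners were lower and 1, Ank3 (0.67), was higher. Ank3 was at 487, 381 and 567 CPM in the positive fractions of mice 155, 192 and 194. In those of mice 209, 210 and 277 it was at 195, 195 and 249 CPM, with inputs at 214, 221 and 231 CPM. Its high levels were thus those of the first 3 mice. Their positive fractions were also high in Malat1, whose part in the result was not tested.

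Other potassium channels, 31 genes of the inward-rectifier, two-pore and calcium- or sodium-activated families, included 19 lower and 8 higher in the Aldh1l1-NuTRAP positive fraction (median -1.28). The most increased were Kcnj16 (3.16), Kcnj10 (3.00) and Kcnj13 (2.42). Kcnj10 and Kcnj16 encode the Kir4.1 and Kir5.1 subunits of the astrocyte potassium conductance, and Kcnj10 was at 1195, 2747 and 2454 CPM against 192, 292 and 306 CPM. Kcnj13 is also on the list of choroid plexus markers. The most decreased were Kcnt2 (-2.28), Kcnj2 (-2.02) and Kcnk6 (-1.98). In the Cx3cr1-NuTRAP positive fraction against input, 14 were lower and 1 higher. That gene was Kcnk6 (TWIK2), a two-pore channel of macrophages and microglia, at 22.8, 30.8 and 56.8 CPM against 3.84, 4.47 and 6.15 CPM (log2 fold change 2.87), and Kcnk9 (-1.64), Kcnj3 (-1.18) and Kcnn3 (-1.16) were the most decreased.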

How the data were processed

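Ribosome-bound (TRAP) and whole-tissue RNA sequencing of 29 libraries was used. Per the study's methods, the authors trimmed reads and aligned them directionally to mm10 in Strand NGS, and the file headers name a RefSeq gene set. They deposited estimated counts per gene, mostly not whole numbers, and DESeq-normalized log2 values, centred near 0, which were not used here. Counts were rounded and fitted with edgeR 4.0.16 (quasi-likelihood, robust, TMM factors, two-sided, Benjamini-Hochberg over 14132 genes, threshold 0.05) on the groups compared. CPM were scaled by TMM over all libraries, and CPM per kb used the union of annotated exons. The deposited table was tested for repeated libraries and none was found.

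Members and gene lists (neurons, other interneurons, astrocytes, oligodendrocytes and their precursors, microglia, choroid plexus, cortex and hippocampus, striatum, thalamus and hindbrain, cerebellum, endothelium, partners, other potassium channels) were chosen with earlier results of these data known. Per-library values are given for Kcnb2, for up to 5 members with the largest non-overlapping rise and 5 with the largest decline in 3 comparisons, and for 3 in each direction of the interaction. Other members, whole-tissue levels by mouse and promoters were picked after their values were seen. Single values of some members are not reported here, and counts over all members include them. Fractions of one line came from the same mice, by the labels, and residuals of paired libraries correlated over 0.1 in 3 of 3 Aldh1l1-NuTRAP and 3 of 6 Cx3cr1-NuTRAP positive and negative pairs, 3 of 6 positive and input pairs, 5 of 6 negative and input pairs and 0 of 5 pairs with whole tissue. Alternatives were other filters, DESeq2 size factors, library totals alone, DESeq2 1.42.0, all libraries in a single fit, the mouse as block, each mouse left out, and a limit of 25% change. The fits were tested on simulated data. Near-identical sequence and overlapping genes could share reads in the authors' counting.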

Additional observations from a re-analysis of the deposited data

Results flagged for a closer look

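Single mice stood apart in 3 of 64 groups examined (16 genes in 4 Cx3cr1-NuTRAP groups, where chance alone sets apart about 1 in 20). Mouse 155 was the lowest of the 6 in each of them. In the negative fraction it had 314 CPM of Kcnc1 against 412 CPM in the next mouse and 44.4 CPM of Kcnh1 against 60.1 CPM, and in input it had 7.85 CPM of Kcng1 against 11.3 CPM.

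The change from the negative to the positive fraction was called different between the lines for all but 6 of the 39 members. Listed here are Kcnb2 and genes picked from that same test for the largest differences. The calls of Kcnh4 and Kcna3 did not hold in every refit, as given earlier. The log2 difference was 1.53 for Kcnip3 and 1.03 for Kcng4, and -2.07 for Kcnh4, -1.97 for Kcna3, -1.86 for Kcng1 and -1.15 for Kcnb2 (edgeR, adjusted p from 6.19e-09 to 0.0232).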

How the results depend on the processing

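Of 503 refits of single named genes, 486 kept direction and call, 12 lost the call, 4 gained it and 1 reversed, Kcnb2 in input against whole tissue without mice 155, 192 and 194 (0.02). Leaving out 1 mouse gave 19 to 32 lower members in the Aldh1l1-NuTRAP fractions, 1 to 2 higher for Cx3cr1-NuTRAP positive against input, 0 to 1 higher and 3 to 9 lower against negative, 0 to 1 higher and 0 to 14 lower for negative against input, and 7 to 12 higher and 4 to 9 lower for input against tissue. For positive against input, higher members numbered 2 without mice 209, 210 and 277, 4 without mice 155, 192 and 194, and 0 above a 25% change. DESeq2 called 1 member higher for positive against negative and for negative against input, and 1 higher and 1 lower between negative fractions. For negative against input, lower members numbered 3 in a single fit of all 29 libraries, 0 without mice 209, 210 and 277 and 16 (with 1 higher) without mice 155, 192 and 194. With the mouse as replicate block there were 2 higher and 17 lower. For input against tissue, higher members numbered 6 in the single fit, 6 without mice 209, 210 and 277 and 6 without mice 155, 192 and 194, and lower ones 11 and 0 without these sets, 4 with the block and 4 above a 25% change. The cause was not tested. The block moved no other count of calls by over 1.5 times. Genes such as Kcnh6, with 4.4 to 77.9 counts per library, limit what can be called.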

Other observations

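Family members under the count threshold were faint in all libraries. Kcnh8, an ELK subunit, had 2 to 75 counts, Kcng3 1.5 to 51.7, Kcnq1 2 to 30, Kcnv2 0 to 11, Kcna7 0 to 7 and Kcna10 0 to 6.

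Among members, 6 are on the neuron list of the study (Kcnb2, Kcnc2, Kcnh7, Kcnip1, Kcnip4 and Kcnq5) and 1, Kcna1, is on its oligodendrocyte list. All 7 were lower in the Aldh1l1-NuTRAP positive than negative fraction, as were 83 of the 93 other genes on that neuron list and 124 of the 193 others on the oligodendrocyte list.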
